A study of Mus musculus with 16 samples.

Results

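Genes of the skeletal muscle fiber were followed across 16 subcutaneous B16-OVA tumors. The set held 40 genes of 18193 with a probe set of their own, and all 40 were measured. The genes were named from knowledge of the muscle fiber, after the measured signals of these same tumors had shown muscle transcripts in some of them. They were therefore selected on the readout described here, and their height in those tumors is a description that supports nothing further. Each gene was represented by the probe set with the highest mean over the 16 arrays among those annotated to that gene alone. B16-OVA cells, mouse melanoma cells with ovalbumin as a model antigen, were injected with Matrigel under the skin of the flank of C57BL/6-Ly5.1 mice aged 6 to 12 weeks. Control mice received vehicle by mouth with a control antibody. CD40 mice received vehicle with the agonist anti-CD40 antibody of the mIgG1 isotype, MEKi mice the MEK inhibitor GDC-0623 at 30 mg/kg daily with the control antibody, and MEKi+CD40 mice the inhibitor with the agonist antibody. Antibody doses fell on days 3, 5 and 7 of treatment, with a last dose 1 day before the end, tumors were taken on day 18 after injection, and each group had 4 mice. RNA came from a piece of each whole tumor, so host tissue in that piece was measured along with the melanoma cells, and fewer cells of a type cannot be told apart from less RNA per cell. The 7 melanocyte genes checked (such as Mlana, Tyrp1 and Sox10) had a mean log2 signal between 13.46 and 13.77 in every tumor.

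Skeletal muscle fibers contract when myosin in the thick filament pulls on actin in the thin filament, within repeating units bounded by Z-discs. A fiber carries the myosin heavy chain of its type: Myh7 marks slow oxidative fibers, Myh2 fast oxidative fibers, and Myh1 and Myh4 the faster glycolytic fibers that dominate most mouse limb and trunk muscles. Calcium released from the sarcoplasmic reticulum starts contraction by binding troponin C, and creatine kinase, glycogen breakdown and the mitochondrial respiratory chain supply the energy. Of the 40 genes, 10 belong to the thick filament, 7 to the thin filament, 10 to the Z-disc and the elastic scaffold, 5 to calcium handling, 7 to energy metabolism and 1, Trim63, to protein turnover.

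The promoters of some of these genes are shown because the genes were high in the same tumors. The 3 adult fast myosin genes lie next to each other on chromosome 11 of GRCm38.p6, Myh2 at 67171027 to 67197517, Myh1 at 67200102 to 67224577 and Myh4 at 67237812 to 67260447, yet their signals did not move in one proportion, as described below for MEKi tumor 2. Acta1 stands for the genes that were high with them, and Cox7a1 for the few that were not. Each line gives the 250 bases before the annotated start, 5′ to 3′ on the gene's strand, from RefSeq on GRCm38.p6, with every match to an E-box (CANNTG), an MEF2 motif or a CArG box in capitals.
Myh2, chr11:67170777-67171026, plus strand: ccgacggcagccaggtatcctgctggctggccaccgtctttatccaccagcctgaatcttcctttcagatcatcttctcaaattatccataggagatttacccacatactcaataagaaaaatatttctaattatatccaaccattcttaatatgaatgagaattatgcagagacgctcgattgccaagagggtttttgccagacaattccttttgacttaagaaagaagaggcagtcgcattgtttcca
Myh1, chr11:67199852-67200101, plus strand: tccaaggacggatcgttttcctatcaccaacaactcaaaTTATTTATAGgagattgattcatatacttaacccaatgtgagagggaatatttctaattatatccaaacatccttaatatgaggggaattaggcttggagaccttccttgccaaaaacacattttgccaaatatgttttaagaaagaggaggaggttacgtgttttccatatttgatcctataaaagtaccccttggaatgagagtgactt
Myh4, chr11:67237562-67237811, plus strand: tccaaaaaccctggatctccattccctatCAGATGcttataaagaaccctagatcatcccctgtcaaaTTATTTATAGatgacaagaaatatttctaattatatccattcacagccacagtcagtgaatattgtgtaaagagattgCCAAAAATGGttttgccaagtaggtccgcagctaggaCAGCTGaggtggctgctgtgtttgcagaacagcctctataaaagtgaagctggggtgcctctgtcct
Acta1, chr8:123894776-123895025, minus strand: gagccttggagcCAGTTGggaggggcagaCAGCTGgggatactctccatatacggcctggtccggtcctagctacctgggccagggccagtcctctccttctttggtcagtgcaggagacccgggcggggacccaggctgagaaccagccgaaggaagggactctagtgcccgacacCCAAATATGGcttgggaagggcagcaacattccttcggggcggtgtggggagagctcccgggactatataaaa
Cox7a1, chr7:30183921-30184170, plus strand: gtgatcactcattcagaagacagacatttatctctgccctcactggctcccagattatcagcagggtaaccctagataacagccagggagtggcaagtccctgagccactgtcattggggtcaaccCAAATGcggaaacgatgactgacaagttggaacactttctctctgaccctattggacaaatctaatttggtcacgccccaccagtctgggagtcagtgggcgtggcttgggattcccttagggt
E-boxes are bound by MyoD family factors among many others, MEF2 motifs by MEF2 factors and CArG boxes by serum response factor. The window before Myh4 held 2 E-boxes, 1 MEF2 motif and 1 CArG box, that before Myh1 held 1 MEF2 motif only, and that before Myh2 held none of the 3 motifs. The Acta1 window held 2 E-boxes and 1 CArG box, and the Cox7a1 window 1 E-box. RefSeq windows matched 31 of the 40 genes. An MEF2 motif stood in 5 of the 31 windows (16.1%) against 3.01% of all 27025 windows, a CArG box in 4 (12.9%) against 1.40%, and an E-box in 25 (80.6%) against 66.0%. Both strands were searched and matches of different motifs could overlap. These are matches of letters in a short window, and nothing about binding was measured.

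Values are RMA log2 signals as deposited, on which 1 unit is a 2-fold difference, and the excess of a tumor is its log2 signal minus the mean of the 4 control tumors for the same probe set. A probe set's own response sets its scale, so excesses are compared between tumors for a gene and not as ratios between genes. Silent genes were represented by 44 olfactory receptor probe sets, and the 95th percentile of their mean signals (4.94) served as the level of silent genes. In control tumors 24 of the 40 genes had a mean below that level and 16 above it. For the former an excess is a distance from a floor and understates a ratio.

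The muscle genes were high in 3 of the 16 tumors, and the other tumors of the same groups stayed near the controls. The median excess of the 40 genes was 5.56 in MEKi+CD40 tumor 1, 2.52 in MEKi+CD40 tumor 3 and 1.24 in CD40 tumor 3. MEKi tumor 2 followed with 0.27, and the median of each of the remaining 8 treated tumors fell between −0.05 and 0.16. MEKi+CD40 tumor 1 held the highest signal of all 16 tumors for 38 genes, the exceptions being Cox7a1 and Trim63, and MEKi+CD40 tumor 3 held the second highest for 33. In 26 genes the order was MEKi+CD40 tumor 1, then MEKi+CD40 tumor 3, then CD40 tumor 3.

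**Figure D1:**
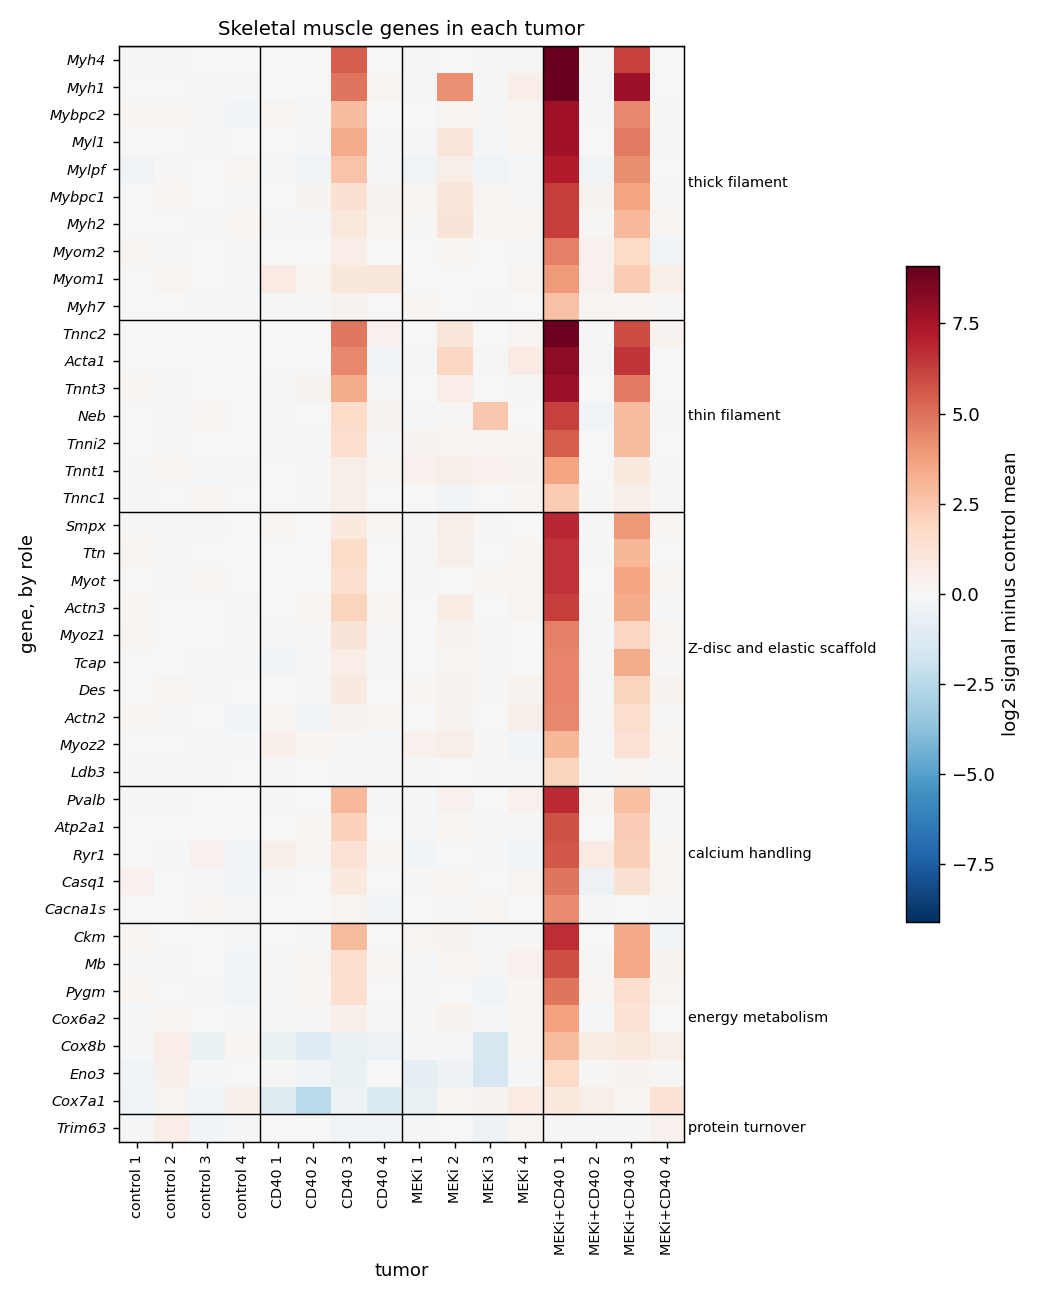
Log2 signal minus the control mean for each of the 40 muscle genes (rows, by role) in each of the 16 tumors (columns, by group), with red above and blue below the control mean. Columns of high signal stand in MEKi+CD40 tumor 1 (median 5.56), MEKi+CD40 tumor 3 (2.52) and CD40 tumor 3 (1.24), Myh1 is high in MEKi tumor 2, Neb alone is high in MEKi tumor 3, and Cox7a1 and Cox8b are low in CD40 tumors.

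Counted as signals more than 1 log2 unit above the highest control tumor, 38 of the 40 genes were over in MEKi+CD40 tumor 1, where 6.13% of all 18193 genes were. The count was 30 in MEKi+CD40 tumor 3, where 1.96% of all genes were over, and 19 in CD40 tumor 3, where 4.27% were. MEKi tumor 2 had 3 genes over (Myh1, Acta1 and Tnnc2) against 0.044% of all genes, and MEKi tumor 3 had 1, Neb, against 1.4%. No muscle gene was over in the other 7 treated tumors. The background there was 0.0715% in CD40 tumor 1, 0.632% in CD40 tumor 2 and 0.126% in CD40 tumor 4. Among the rest the background was 0.0055% in MEKi tumor 1, 0.022% in MEKi tumor 4, 0.0934% in MEKi+CD40 tumor 2 and 0.0989% in MEKi+CD40 tumor 4. The values that chose the genes are the ones counted, so these shares describe the tumors. At the threshold in MEKi+CD40 tumor 1, Eno3 lay just inside, 1.30 above the highest control, and Cox7a1 just outside, 0.40 above it. Of the 100 genes with the largest margin over the highest control, 29 were among the 40 in MEKi+CD40 tumor 1, 21 in MEKi+CD40 tumor 3, and 9 each in CD40 tumor 3 and MEKi tumor 2.

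The thick filament is the motor of the fiber. Myh4, the heavy chain of the fastest fibers, was near its floor in 13 tumors. Myh4 had log2 signals of 2.92, 3.16, 3.11 and 3.12 in control tumors 1 to 4, 3.06, 3.06, 8.59 and 3.06 in CD40 tumors 1 to 4, 2.97, 3.01, 2.92 and 3.18 in MEKi tumors 1 to 4 and 12.17, 3.20, 9.26 and 3.06 in MEKi+CD40 tumors 1 to 4. Its excess was 9.09 in MEKi+CD40 tumor 1, 6.18 in MEKi+CD40 tumor 3 and 5.51 in CD40 tumor 3. Each of these groups therefore overlapped the controls in its other tumors.

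Myh1, the heavy chain of type IIx fibers, was high in a further tumor. In the control tumors the log2 signal of Myh1 was 3.17, 3.28, 3.35 and 3.05, in the CD40 tumors 3.19, 3.15, 8.08 and 3.48, in the MEKi tumors 3.14, 7.38, 3.03 and 3.83 and in the MEKi+CD40 tumors 12.23, 3.11, 11.01 and 3.21. MEKi tumor 2 read far above the other 3 MEKi tumors, with an excess of 4.17, where Myh4 had −0.07. Another Myh1 probe set gave an excess of 4.36 in that tumor and 8.99 in MEKi+CD40 tumor 1, and the last of the 3 gave −0.04 and 0.08. The brightest of the 3 is of the type that may hybridise to related transcripts, which limits how far Myh1 can be told from its neighbors. Myh1 was the gene with the largest margin over the controls of all 18193 in MEKi tumor 2 (4.03 above the highest control) and in MEKi+CD40 tumor 3 (7.66).

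Myh2, the heavy chain of fast oxidative fibers, showed the same 4 tumors at lower excess. The log2 signals of Myh2, in the order of the tumor numbers, were 3.17, 3.23, 3.14 and 3.41 in controls, 3.36, 3.10, 4.19 and 3.48 with CD40, 3.36, 4.39, 3.40 and 3.50 with MEKi and 9.53, 3.33, 6.19 and 3.43 with MEKi+CD40. The excess was 6.29, 2.95 and 0.95 in MEKi+CD40 tumors 1 and 3 and CD40 tumor 3, and 1.15 in MEKi tumor 2. For Myh2 MEKi tumor 2 thus lay above CD40 tumor 3, whereas for Myh4 CD40 tumor 3 (8.59) lay above MEKi tumor 2 (3.01).

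Myh7, the slow heavy chain, was high in 1 tumor alone. For Myh7, control tumors read 4.40, 4.38, 4.47 and 4.19, CD40 tumors 4.28, 4.45, 4.67 and 4.29, MEKi tumors 4.53, 4.40, 4.45 and 4.43 and MEKi+CD40 tumors 7.02, 4.60, 4.53 and 4.46 on the log2 scale. MEKi+CD40 tumor 1 had an excess of 2.66, and the other 11 treated tumors lay within 0.31 of the control mean. MEKi+CD40 tumor 3, with the second highest Myh1 and Myh4, gave 0.17. The remaining thick filament genes are Myl1 and Mylpf (fast myosin light chains), Mybpc1 and Mybpc2 (slow and fast myosin binding proteins) and Myom1 and Myom2 (myomesins that link myosin at the M-line). Among them the excess in MEKi+CD40 tumor 1 ran from 3.87 for Myom1 to 7.71 for Mybpc2, and in CD40 tumor 3 from 0.60 for Myom2 to 3.40 for Myl1. Myom1 departed from the rest in that CD40 tumors 1 and 4, in which no fast myosin was high, had excesses of 0.76 and 1.05. All 4 CD40 tumors (5.35, 4.84, 5.61 and 5.64) lay above the highest control (4.82), though CD40 tumor 2 by 0.02 only. The CD40 tumors lay above the highest control for Tnni2 too (lowest 5.24 against 5.21), and the share of all genes so separated was not counted.

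**Figure D2:**
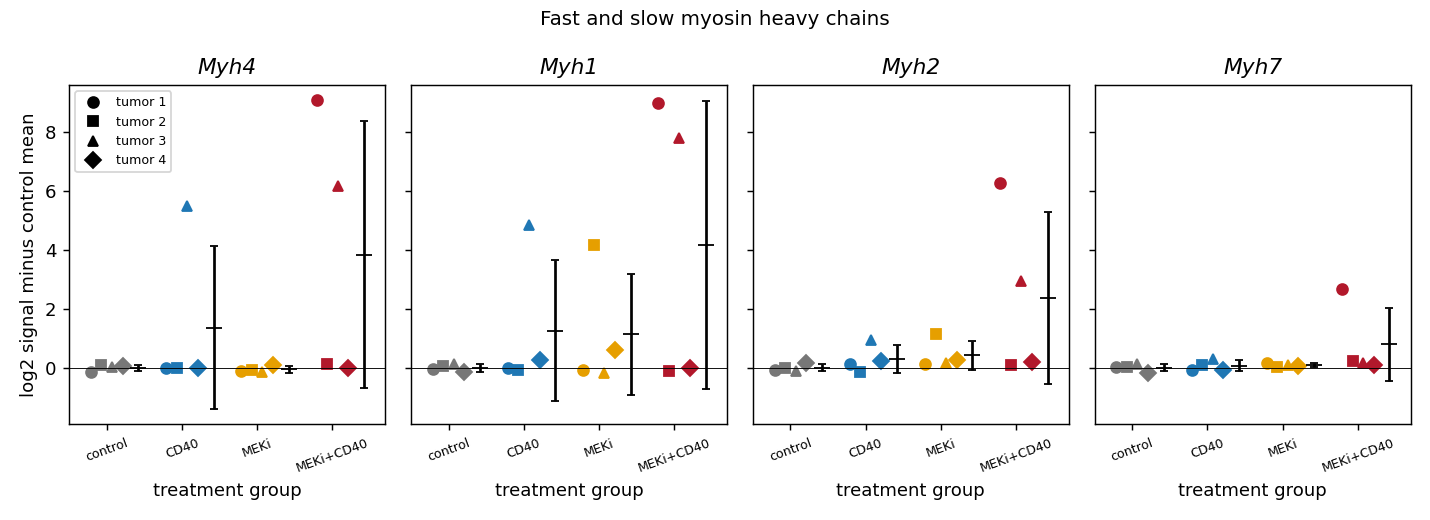
Log2 signal minus the control mean for Myh4, Myh1, Myh2 and Myh7 in each tumor, by treatment group and with tumor numbers as shapes, while black bars give mean and SD over the 4 tumors of a group. MEKi+CD40 tumor 1 is high in all 4 panels (9.09, 9.02, 6.29 and 2.66), MEKi tumor 2 is high for Myh1 (4.17) and at the control mean for Myh4, and every high group mean rests on 1 or 2 tumors.

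Thin filament genes followed the fast myosins where they are the fast forms. Acta1 encodes skeletal muscle actin. Acta1 had log2 signals of 5.89, 5.76, 5.88 and 5.76 in control tumors 1 to 4, 5.87, 5.82, 10.22 and 5.52 in CD40 tumors 1 to 4, 5.75, 7.74, 5.72 and 6.54 in MEKi tumors 1 to 4 and 13.99, 5.71, 12.35 and 5.82 in MEKi+CD40 tumors 1 to 4. MEKi tumor 2 was again above the rest of its group, with an excess of 1.92, and MEKi tumor 4 had 0.72. Tnnc2 is the fast fiber troponin C. In the control tumors the log2 signal of Tnnc2 was 4.49, 4.51, 4.52 and 4.59, in the CD40 tumors 4.50, 4.55, 9.33 and 4.93, in the MEKi tumors 4.49, 5.65, 4.53 and 4.78 and in the MEKi+CD40 tumors 13.43, 4.36, 10.45 and 4.84. Its excess was 8.90 in MEKi+CD40 tumor 1 and 4.80 in CD40 tumor 3, against 1.12 in MEKi tumor 2. Tnnc1, the troponin C of slow fibers and heart, had much less range. The log2 signals of Tnnc1, in the order of the tumor numbers, were 4.75, 4.89, 5.00 and 4.79 in controls, 4.87, 4.77, 5.41 and 4.87 with CD40, 4.79, 4.59, 4.83 and 5.00 with MEKi and 7.19, 4.93, 5.31 and 4.94 with MEKi+CD40. Only MEKi+CD40 tumor 1 stood well apart, with an excess of 2.33, and MEKi tumor 2 had the lowest Tnnc1 signal of all 16 tumors. Tnnt3, the fast troponin T that anchors the complex to tropomyosin, was high where Tnnc2 was. For Tnnt3, control tumors read 3.91, 3.54, 3.75 and 3.69, CD40 tumors 3.55, 4.01, 7.09 and 3.86, MEKi tumors 3.74, 4.32, 3.79 and 3.81 and MEKi+CD40 tumors 11.56, 3.67, 8.36 and 3.66 on the log2 scale. In the same tumors Tnni2, the fast inhibitory subunit, had excesses of 5.49, 2.83 and 1.54. Tnnt1, the slow troponin T, had 3.60, 0.89 and 0.55.

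Neb encodes nebulin, the giant ruler of thin filament length, and was the only muscle gene high in MEKi tumor 3. Its log2 signal there was 6.23, an excess of 2.48, against 3.67, 3.83 and 3.75 in the other 3 MEKi tumors. That lay between CD40 tumor 3 (5.39) and MEKi+CD40 tumor 3 (6.58). The other 39 genes in MEKi tumor 3 had excesses of at most 0.42 (Tnnt1).

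Genes of the Z-disc and the elastic scaffold anchor the filaments and give the sarcomere its elasticity. Des encodes desmin, the intermediate filament that ties Z-discs together, and is also made by smooth muscle and pericytes. Des had log2 signals of 6.54, 6.83, 6.47 and 6.58 in control tumors 1 to 4, 6.64, 6.74, 7.40 and 6.64 in CD40 tumors 1 to 4, 6.77, 6.92, 6.74 and 6.90 in MEKi tumors 1 to 4 and 11.02, 6.42, 8.60 and 6.95 in MEKi+CD40 tumors 1 to 4. Its excess was 4.42, 2.00 and 0.80 in the 3 tumors, from a control mean of 6.61 that lay above the level of silent genes. By the brightest probe sets the highest excess of the class was that of Smpx, a small protein of the costamere, with 6.87 in MEKi+CD40 tumor 1, 3.91 in MEKi+CD40 tumor 3 and 0.92 in CD40 tumor 3. In CD40 tumor 3 it was that of Actn3, the alpha-actinin of fast fibers, at 2.00, while Actn2, the alpha-actinin of all fibers and heart, had 0.29. Ldb3, a Z-disc adaptor, was lowest at 2.04, 0.28 and −0.10. The remaining members Ttn (titin), Myot (myotilin), Myoz1 and Myoz2 (calsarcins of fast and slow fibers) and Tcap (the titin cap) had excesses of 2.99 (Myoz2) to 6.57 (Ttn) in MEKi+CD40 tumor 1.

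Calcium handling genes differed in how far MEKi+CD40 tumor 3 and CD40 tumor 3 lay apart. Atp2a1 encodes SERCA1, the pump that returns calcium to the sarcoplasmic reticulum of fast fibers. In the control tumors the log2 signal of Atp2a1 was 5.05, 5.02, 5.06 and 5.10, in the CD40 tumors 4.99, 5.21, 7.15 and 5.05, in the MEKi tumors 4.98, 5.22, 4.95 and 5.19 and in the MEKi+CD40 tumors 10.87, 5.08, 7.33 and 4.93. MEKi+CD40 tumor 3 was above CD40 tumor 3 by 0.18 for this gene. Pvalb, the calcium buffer parvalbumin of fast fibers, was the highest of the class with excesses of 6.81, 2.76 and 2.97 in MEKi+CD40 tumors 1 and 3 and CD40 tumor 3, so that here CD40 tumor 3 was the higher of the last 2. Cacna1s, the voltage sensor of the transverse tubule, was high in MEKi+CD40 tumor 1 alone (4.32, against 0.06 and 0.28). Ryr1, the calcium release channel, and Casq1, the calcium store of the reticulum, had excesses of 5.64 and 4.89 in MEKi+CD40 tumor 1. The difference MEKi+CD40 tumor 3 minus CD40 tumor 3 had a median of 0.18 over the 5 calcium genes, from −0.22 for Cacna1s to 0.89 for Ryr1. Its median was 1.46 over the thick filament, 1.19 over the thin filament, 1.33 over the Z-disc genes and 0.73 over the energy genes. These are differences between single tumors, with no replicate of either.

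Of the energy metabolism genes, Ckm, Mb, Pygm and Cox6a2 followed the fibers more closely than Cox7a1, Cox8b and Eno3, which are described further below. Signal in control tumors does not separate them, since the control means of Ckm (6.01) and Cox6a2 (6.48) also lay above the level of silent genes. Ckm encodes the muscle creatine kinase, which buffers ATP. The log2 signals of Ckm, in the order of the tumor numbers, were 6.17, 6.04, 6.00 and 5.84 in controls, 6.08, 5.94, 8.92 and 5.96 with CD40, 6.23, 6.34, 5.80 and 6.15 with MEKi and 12.75, 5.95, 9.46 and 5.74 with MEKi+CD40. Mb encodes myoglobin, the oxygen store of oxidative fibers. For Mb, control tumors read 4.93, 4.93, 4.86 and 4.56, CD40 tumors 4.93, 5.05, 6.29 and 5.09, MEKi tumors 4.70, 5.10, 4.95 and 5.20 and MEKi+CD40 tumors 10.68, 4.91, 8.24 and 5.11 on the log2 scale. Both were high in the same 3 tumors, with excesses of 2.91 for Ckm and 1.47 for Mb in CD40 tumor 3, and neither was more than 0.33 above the control mean in MEKi tumor 2. Pygm, the muscle glycogen phosphorylase, and Cox6a2, a heart and muscle subunit of cytochrome c oxidase, had excesses of 4.83 and 3.64 in MEKi+CD40 tumor 1.

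The mean excess of 14 genes of fast contraction was 6.97 in MEKi+CD40 tumor 1, 3.95 in MEKi+CD40 tumor 3, 2.78 in CD40 tumor 3 and 0.77 in MEKi tumor 2. Between the other tumors it ranged from −0.05 to 0.19. For the 4 slow genes (Myh7, Tnnc1, Tnnt1 and Myoz2) the same 4 tumors had 2.89, 0.70, 0.39 and 0.20, and the other tumors −0.14 to 0.22, so that MEKi tumor 2 lay within their range. The step from MEKi+CD40 tumor 3 to MEKi+CD40 tumor 1 was at least 1.22 for each of the 14 fast genes (median 2.98) and at least 1.71 for each of the 4 slow genes (median 2.19). The step from CD40 tumor 3 to MEKi+CD40 tumor 3 had a median of 1.28 over the fast genes and 0.12 over the 4 slow ones. Of these only Myoz2 (1.14) was more than 0.34 apart. Myh7 was below the level of silent genes in both tumors (4.67 and 4.53) and Myoz2 in CD40 tumor 3 (4.27). A floor can hide a step there. Mybpc1, the slow myosin binding protein, was in neither set and went the other way. Its excess was 6.3 and 3.6 in MEKi+CD40 tumors 1 and 3, 1.4 in CD40 tumor 3 and 1.1 in MEKi tumor 2. Its step from CD40 tumor 3 to MEKi+CD40 tumor 3 was 2.17, so the contrast of fast and slow depends on the slow genes chosen.

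**Figure D3:**
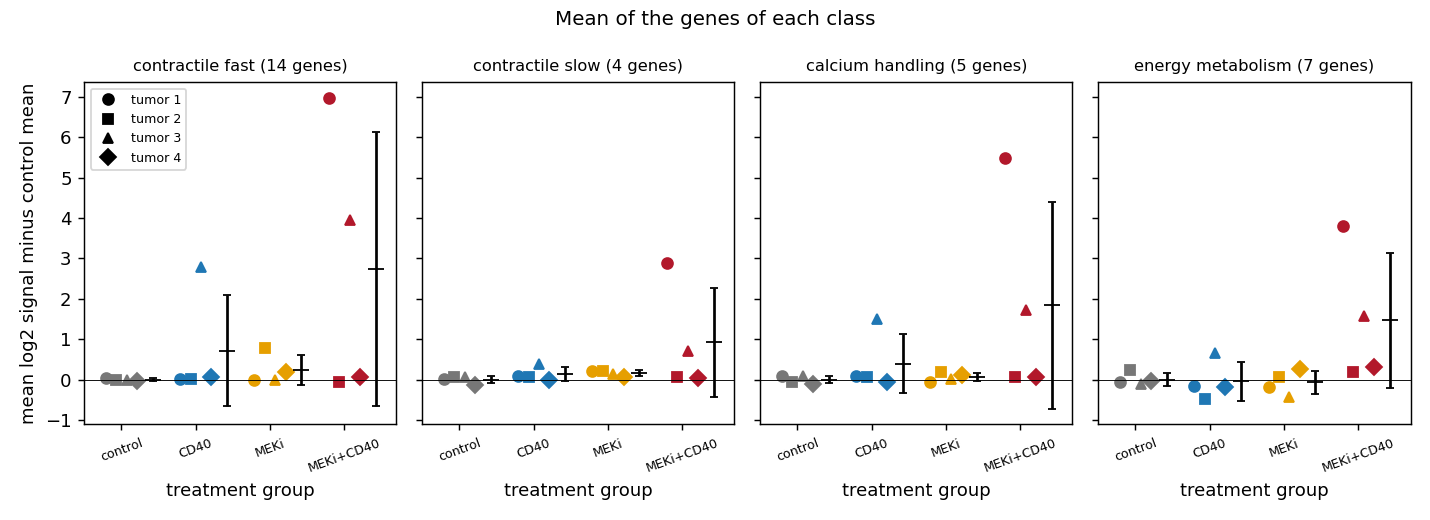
Mean log2 signal minus the control mean over the genes of fast contraction, slow contraction, calcium handling and energy metabolism in each tumor, by treatment group and with tumor numbers as shapes, while black bars give mean and SD over the 4 tumors of a group. MEKi+CD40 tumor 1 is highest in every panel (6.97, 2.89, 5.49 and 3.79), and MEKi+CD40 tumor 3 and CD40 tumor 3 lie close together for calcium handling (1.73 and 1.50).

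Cox7a1, Cox8b, Eno3 and Trim63 had control means above the level of silent genes and did not follow the fibers in the same way. Cox7a1 is a heart and muscle subunit of cytochrome c oxidase. Cox7a1 had log2 signals of 7.40, 8.07, 7.48 and 8.27 in control tumors 1 to 4, 6.69, 5.38, 7.35 and 6.59 in CD40 tumors 1 to 4, 7.11, 8.00, 8.15 and 8.58 in MEKi tumors 1 to 4 and 8.67, 8.34, 7.97 and 9.05 in MEKi+CD40 tumors 1 to 4. All 4 CD40 tumors were below all 4 control tumors and below all 4 MEKi+CD40 tumors, and CD40 tumor 3, with its high myosins, was the highest of its group. Cox8b is another tissue-specific subunit of the same complex. In the control tumors the log2 signal of Cox8b was 6.20, 6.97, 5.79 and 6.52, in the CD40 tumors 5.78, 5.22, 5.70 and 5.86, in the MEKi tumors 6.25, 6.18, 4.91 and 6.58 and in the MEKi+CD40 tumors 9.24, 7.07, 7.25 and 6.90. It was lower in all 4 CD40 tumors than in all 4 MEKi+CD40 tumors, and MEKi+CD40 tumor 1 was the highest of all. The share of all genes whose groups lie apart in this way was not counted, so these orders describe the tumors only.

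Eno3 encodes the muscle beta-enolase of glycolysis. The log2 signals of Eno3, in the order of the tumor numbers, were 10.14, 10.81, 10.23 and 10.32 in controls, 10.48, 10.14, 9.80 and 10.44 with CD40, 9.64, 9.91, 8.86 and 10.23 with MEKi and 12.11, 10.50, 10.72 and 10.49 with MEKi+CD40. MEKi+CD40 tumor 1 had the highest signal and MEKi tumor 3 the lowest, 1.51 below the control mean. The MEKi+CD40 tumors (lowest 10.49) also lay above the CD40 tumors (highest 10.48), though barely. Trim63, the ubiquitin ligase MuRF1 known from muscle wasting, was the only gene of protein turnover. For Trim63, control tumors read 9.82, 10.61, 9.77 and 9.93, CD40 tumors 10.10, 10.01, 9.74 and 9.70, MEKi tumors 9.91, 9.99, 9.60 and 10.19 and MEKi+CD40 tumors 9.94, 9.95, 10.15 and 10.43 on the log2 scale. Its 16 signals lay between 9.60 and 10.61, with MEKi+CD40 tumor 1 (9.94) in their midst.

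**Figure D4:**
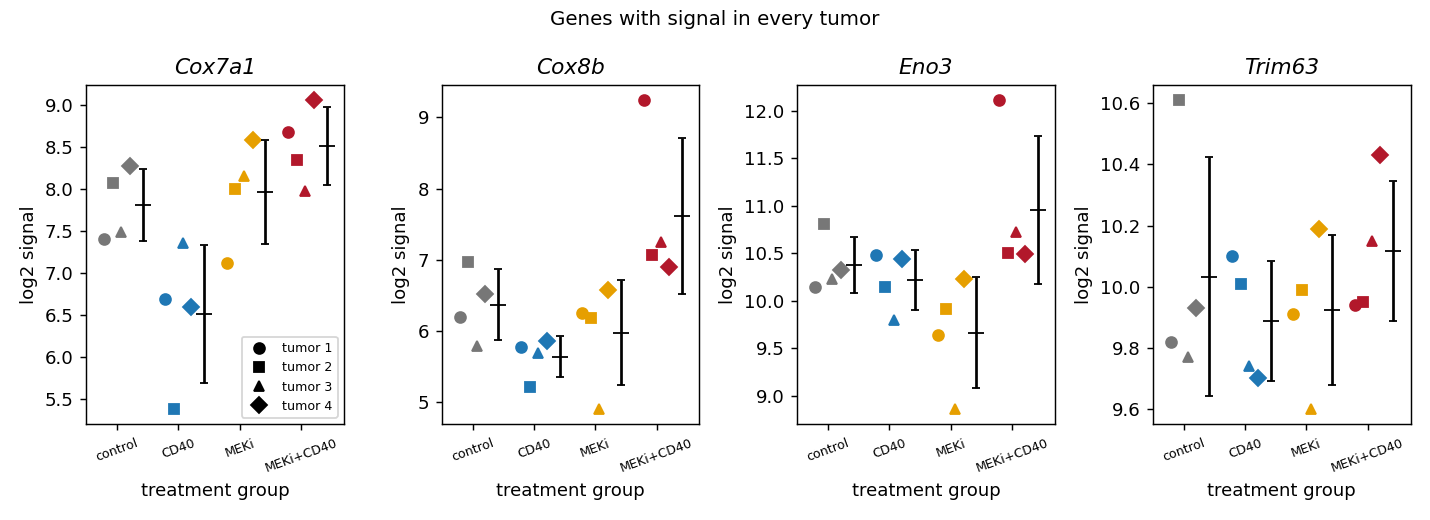
Log2 signal of Cox7a1, Cox8b, Eno3 and Trim63 in each tumor, by treatment group and with tumor numbers as shapes, while black bars give mean and SD over the 4 tumors of a group (the vertical axes differ). Cox7a1 is lower in the 4 CD40 tumors (5.38 to 7.35) than in the 4 MEKi+CD40 tumors (7.97 to 9.05), and Trim63 shows no tumor with the height of the contractile genes.

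The treatment groups were compared with limma, over all 45037 probe sets and with Benjamini-Hochberg adjustment, each pair on its own 8 arrays. The comparisons share tumors and are not independent of each other. Since the choice of genes used these tumors, the calls describe them. No muscle gene passed an adjusted p of 0.05 in CD40 against control (0% of all genes did), in MEKi against control (0%), in MEKi+CD40 against control (0.0055%) or in MEKi+CD40 against MEKi (1.55%). At an unadjusted p under 0.05 there were 3, 4, 3 and 3 of the 40 in these 4 comparisons, where 9.98%, 7.9%, 25.4% and 24.6% of all genes reached that level. The interaction of the 2 treatments, fitted on all 16 arrays, called none (0% of all genes) and had 3 of the 40 at the unadjusted level, against 17.6% of all genes. MEKi+CD40 against CD40 called 1 of the 40, Cox7a1, where 6.44% of all genes were called, a share above that of the muscle genes. At the unadjusted level it had 2 of the 40, against 25.5% of all genes.

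Differences of the contractile genes between groups were large and had large errors. In MEKi+CD40 against control the mean difference was positive in all 40 genes, with a median of 2.04 against 0.03 over all genes. For Acta1 it was 3.65 ± 1.83 (SE, limma adjusted p = 0.299), for Myh1 4.18 ± 2.07 (adjusted p = 0.294) and for Atp2a1 1.99 ± 1.17 (adjusted p = 0.373), with 4 tumors in each group. In each case 2 tumors of the group were high and the other 2 were at the control level. Since the 3 tumors of high signal were picked by these same genes, the medians without them describe the remaining tumors and test nothing. Without them the median over the 40 genes was 0.05, and in CD40 against control it was 0.02 in place of 0.40. In MEKi+CD40 against MEKi the median was 1.89 with all tumors and −0.11 without them, and in MEKi+CD40 against CD40 it was 1.74 and 0.01.

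By role, the median difference of MEKi+CD40 against control was 2.69 for the thick filament, 2.23 for the thin filament, 1.82 for the Z-disc genes, 2.00 for calcium handling and 1.25 for energy metabolism, and 0.09 for Trim63. The lowest of the thick filament was Myh7 (0.79 ± 0.53), and of the thin filament Tnnc1 (0.74 ± 0.46). MEKi against control had medians of 0.12, 0.34, 0.15, 0.10 and 0.12 in the same 5 roles. The largest in that comparison was Myh1 (1.13 ± 0.83), from MEKi tumor 2. The 4 genes at an unadjusted p under 0.05, a share near the 7.9% of all genes, were Tnnt1 (0.41 ± 0.09), Tnni2 (0.23 ± 0.07) and Des (0.23 ± 0.09), all with a positive difference, and Eno3 with −0.71 ± 0.27, none of which passed after adjustment (limma adjusted p of 0.57 to 0.698). For Tnnt1 the 4 MEKi tumors (5.42, 5.54, 5.44 and 5.33) lay above the highest control (5.18), and for Tnni2 likewise (lowest 5.32 against 5.21). The share of all genes so separated was not counted.

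Cox7a1 and Cox8b also differed between MEKi+CD40 and CD40 tumors when the tumors of high muscle signal were left out, Cox8b by less than with all tumors. The part of muscle tissue in these differences was not tested. Cox7a1 was higher in MEKi+CD40 than in CD40 tumors by 2.00 ± 0.40 (SE, limma adjusted p = 0.0364), with means of 8.51 and 6.50. Without MEKi+CD40 tumors 1 and 3 and CD40 tumor 3, Cox7a1 and Cox8b were both called in this comparison, and Cox8b was then higher by 1.36. That fit held only MEKi+CD40 tumors 2 and 4 and CD40 tumors 1, 2 and 4. It called 844 of all 18193 genes, a share near that of the 40. The tumors were left out for the signals of the same 40 genes, so these calls describe the remaining tumors. With all tumors Cox8b was higher by 1.98 ± 0.48 (adjusted p = 0.057). The Cox7a1 call was lost on leaving out any one of CD40 tumors 1, 2 and 4 or MEKi+CD40 tumors 2, 3 and 4 (adjusted p of 0.0506 to 0.0996), while the difference stayed between 1.63 and 2.18. In CD40 against control Cox7a1 was lower by 1.30 ± 0.38 (adjusted p = 0.511) and Cox8b by 0.73 ± 0.24 (adjusted p = 0.532). The interaction was 1.85 ± 0.55 for Cox7a1 (adjusted p = 0.131), 2.37 ± 0.65 for Cox8b (adjusted p = 0.115) and 1.46 ± 0.49 for Eno3 (adjusted p = 0.17).

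Of 53 other genes of skeletal muscle on a separate list, 49 were measured. More than 1 log2 unit above the highest control were 34 in MEKi+CD40 tumor 1, 13 in MEKi+CD40 tumor 3, 2 in CD40 tumor 3 and none in any other treated tumor. Of all genes 6.13%, 1.96% and 4.27% were over in the first 3 of these, so the count in CD40 tumor 3 was near the share of all genes. None passed in either direction in CD40 against control, MEKi against control, MEKi+CD40 against control or the interaction, with 3, 2, 6 and 7 of the 49 at an unadjusted limma p under 0.05, where 9.98%, 7.9%, 25.4% and 17.6% of all genes were. In MEKi+CD40 against MEKi, where 1.55% of all genes were called, a share near that of the list, 1 was higher. It was Pfkm (0.64 ± 0.11, limma adjusted p = 0.0496), the muscle phosphofructokinase. In MEKi+CD40 against CD40, where 6.44% of all genes were called, a share near that of the list, 4 were higher and none lower. They were Pfkm (0.85 ± 0.12, adjusted p = 0.0251), Fabp3 (2.39 ± 0.18, adjusted p = 0.0105), the fatty acid binding protein of heart and oxidative muscle, Slc2a4 (0.78 ± 0.11, adjusted p = 0.026), the glucose transporter GLUT4, and Tnni1 (1.16 ± 0.23, adjusted p = 0.037), the slow troponin I. Their excess in MEKi+CD40 tumor 1 was 0.80 for Pfkm, 2.24 for Fabp3, 0.78 for Slc2a4 and 2.08 for Tnni1, against 0.47, 1.97, 0.74 and 0.98 in MEKi+CD40 tumor 4, which had no high myosin. Trdn, the triadin of the calcium release complex and the highest of the 49 in MEKi+CD40 tumor 1, had 6.07 there and 0.12 in MEKi+CD40 tumor 4.

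The 10 genes outside the 40 whose excess over the 16 tumors lay nearest to the median profile of the 40, by root mean square distance in log2 units, were Trdn (0.19), Synpo2 (0.19), Asb5 (0.24), Ppp1r3c (0.26), Pdk4 (0.28), Hspb7 (0.29), Tmod4 (0.33), Klhl41 (0.33), Pgam2 (0.34) and Hspb1 (0.37). The median distance over all 18153 other genes was 1.57. Among the 40 the nearest was Tnni2 (0.16). Trdn had excesses of 6.07, 2.46 and 1.29, Synpo2, an actin-binding protein of smooth and striated muscle, 5.79, 2.22 and 0.90, and Pdk4, the kinase that restrains pyruvate oxidation, 6.03, 3.06 and 0.87 in MEKi+CD40 tumors 1 and 3 and CD40 tumor 3.

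Genes of other tissues differed between the same tumors. All 9 fibroblast genes measured (such as Dcn, Pi16 and Col1a1) were more than 1 log2 unit above the highest control in MEKi+CD40 tumor 1, 8 in MEKi+CD40 tumor 3 and 8 in CD40 tumor 3. Their mean excess in these tumors was 4.01, 2.67 and 2.66. MEKi tumor 3, with 9 of 9 over and a mean excess of 3.02, had a median muscle gene excess of 0.03, and MEKi tumor 2, with its high Myh1, had a fibroblast excess of −0.63. The group ranges of the fibroblast mean were −0.37 to 0.22 in controls, −0.75 to 2.66 with CD40, −0.63 to 3.02 with MEKi and −0.66 to 4.01 with MEKi+CD40. Leukocyte genes (8, such as Ptprc) had a mean excess of 2.04 in MEKi+CD40 tumor 1, 0.71 in MEKi+CD40 tumor 3, 2.85 in CD40 tumor 3 and −2.72 in MEKi tumor 2. Their ranges were −1.13 to 0.97 in controls, 0.62 to 2.85 with CD40, −2.72 to −0.44 with MEKi and −1.25 to 2.04 with MEKi+CD40. The part of these cells in the muscle signal was not tested.

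Fat cell genes (9 of 11 measured) had mean excesses of 2.05, 1.42 and 0.70 in MEKi+CD40 tumors 1 and 3 and CD40 tumor 3, led by Car3, a carbonic anhydrase of muscle and fat (9.25, 7.35 and 4.60, and 1.71 in MEKi tumor 2). Adipoq, the fat cell hormone adiponectin, had 3.18 in MEKi+CD40 tumor 1, 1.71 in MEKi+CD40 tumor 3 and −0.09 in CD40 tumor 3. Without Car3 the mean of the other 8 fat genes was 1.15, 0.68 and 0.22 in these tumors. Endothelial genes (8) had 1.52, 0.34 and 0.99 in MEKi+CD40 tumors 1 and 3 and CD40 tumor 3, and −1.15 in MEKi tumor 3. Smooth muscle genes (8) had 1.70, −0.07 and 0.10 in the same 3 tumors, with Synpo2 at 5.79 in MEKi+CD40 tumor 1. The 8 heart muscle genes had at most 0.38 as a mean, with Myh6 and Nppa within 0.27 of the control mean in every treated tumor. Others of the list were higher, as the atrial light chain Myl4 with 1.26 in MEKi+CD40 tumor 1 and 1.99 in MEKi+CD40 tumor 3, the heart troponin I Tnni3 with 1.18 in CD40 tumor 3, and Nppb with 1.09 in MEKi+CD40 tumor 1, 1.31 in CD40 tumor 3 and 1.60 in MEKi tumor 3. The 5 brown fat genes had at most 0.25 as a mean, with Ucp1 within 0.32. Zic1 of that list had 0.79, 0.82, 0.89 and 0.22 in MEKi+CD40 tumors 1 to 4 and was higher in MEKi+CD40 than in MEKi tumors by 0.99 ± 0.17 (limma adjusted p = 0.0496). Schwann cell genes (4 of 6 measured) had 0.77 and keratinocyte genes (7 of 8) 0.14 in MEKi+CD40 tumor 1, and the keratinocyte mean was highest in MEKi+CD40 tumor 3 (0.50). The mean of the melanocyte genes stayed within 0.17 of the control mean in every tumor, while single genes went further, as Mitf with −0.58 in CD40 tumor 3 and Tyr with −0.45 in MEKi+CD40 tumor 1.

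**Figure D5:**
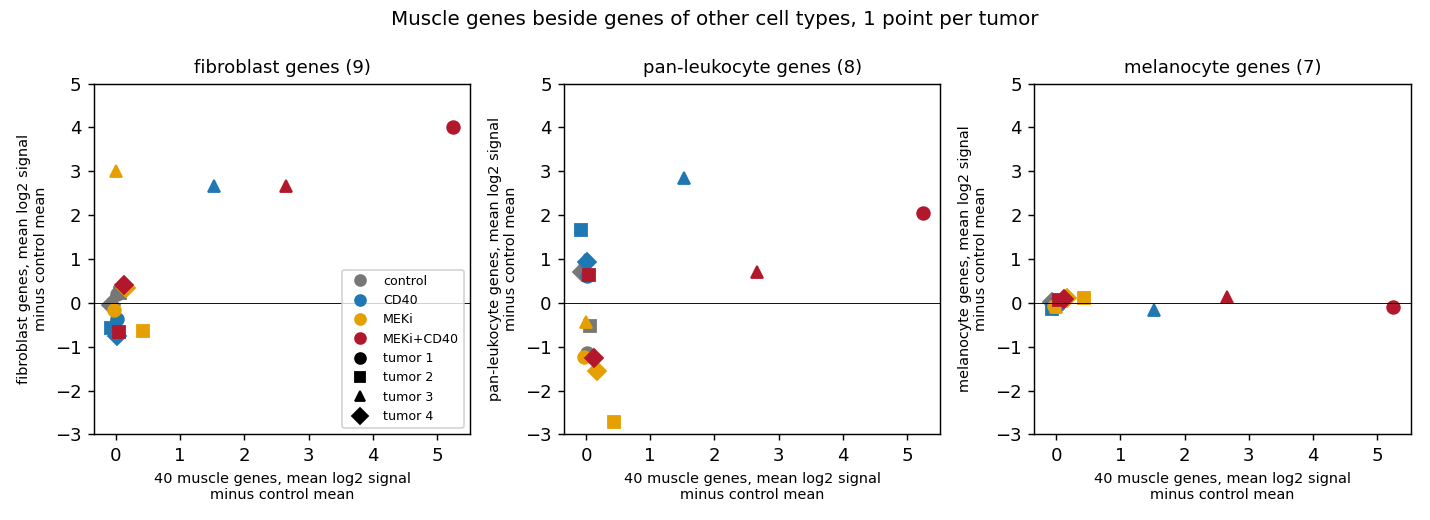
Mean log2 signal minus the control mean of the 40 muscle genes (horizontal axis) against that of the fibroblast, leukocyte and melanocyte genes (vertical axis, panels from left to right), with 1 point per tumor, color for the group and shape for the tumor number. Fibroblast genes are high in the 3 tumors of high muscle signal (4.01, 2.67 and 2.66) and in MEKi tumor 3 (3.02) without muscle signal, and the mean of the melanocyte genes lies within 0.17 of the control mean.

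RNA ends differed in one of these tumors. The log2 signal of the 3′ control probe set of Gapdh minus that of its 5′ probe set was 0.38 in MEKi+CD40 tumor 1 and at most 0.08 in the other 15, and for Actb 0.91 against at most 0.44. Its part in the muscle signal was not tested.

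For 27 of the 40 genes 1 probe set was available, and for 13 there were several that did not all follow. In 7 of the 13 at least 1 probe set had an excess under 1 in MEKi+CD40 tumor 1, as for Mb (0.11, against 5.86 for the brightest) and Des (−0.23, against 4.42). In 5 of the 13 a probe set other than the brightest had the highest excess there. They include Ldb3 (5.75 against 2.04), Myom2 (7.17 against 4.58) and Tnni2 (7.96 against 5.49), so the low place of Ldb3 in its class depends on the probe set. The same holds for the high places of Smpx and Actn3, since another probe set of Ttn had 8.33 in MEKi+CD40 tumor 1 and 3.56 in CD40 tumor 3. It also holds for the low place of Myom2 in CD40 tumor 3, where another of its probe sets had 2.20.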

How the data were processed

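Whole tumors of 16 mice were profiled on an Affymetrix mouse GeneChip array after labelling 200 ng of RNA per tumor from its 3′ end. The authors normalized the scans by RMA in Chipster and deposited log2 values for each probe set. No version of RMA is given in the sources used here. No further normalization was applied to the deposited log2 values. Left out were 64 Affymetrix control probe sets, which left 45037 to be tested. In the platform annotation 34945 had 1 gene symbol, 932 several and 9160 none, and only those with 1 symbol were named. Groups and tumor numbers came from the sample titles. Nothing states an array or extraction batch, and the number of arrays limits the precision.

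Tests used limma 3.58.1 (lmFit, eBayes) in R 4.3.3, with Benjamini-Hochberg adjustment over all 45037 probe sets, the 8 arrays of a pair or, for the interaction, all 16. Other steps used Python 3.11.15 with pandas 2.3.3 and numpy 2.4.6. As a check, normal data were simulated with each probe set's spread within groups, pooled over all 16 arrays. In MEKi+CD40 against control, 72% of 50 probe sets changed by 1 log2 unit and 94% of 50 changed by 2 were called. The spread was drawn alike for every group, unlike most of the 40 genes, where 2 MEKi+CD40 tumors were high and 2 were not. These shares therefore do not apply to those genes. The 40 genes and all lists were chosen with earlier results of these data known. All 40 are accounted for by role, with every value for 12 fixed by name (Acta1, Myh4, Myh1, Myh2, Myh7, Tnnc2, Tnnc1, Tnnt3, Ckm, Mb, Atp2a1 and Des), the highest and lowest of each role, and the 10 other genes nearest to the median profile. Cox7a1, Cox8b, Eno3, Trim63, Neb and Myom1 were given in more detail after their values were seen. Alternatives were all 16 arrays in 1 fit, blocking on the tumor number, a filter on low signal, the mean of all probe sets, 2 other normalizations, eBayes with trend and robust settings, array weights, leaving out each tumor, and leaving out the 3 tumors of high muscle signal together.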

Additional observations from a re-analysis of the deposited data

Results flagged for a closer look

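Within a group of 4 tumors, a gene was singled out when its highest or lowest tumor lay apart from the nearest other by more of the group's range than Dixon's 95% critical value for 4 samples allows. That was so in 34 of 160 sets (40 genes in 4 groups), where chance gives about 1 in 20 and 6.4% of such sets over all genes were so. The 40 genes were chosen for their height in some of these tumors and are high in the same ones, so the count describes that choice and is no test. In the control group there was none.

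In CD40 tumors 24 genes were singled out, each time for the high signal of CD40 tumor 3. The gap was the whole range (1.00) for Myh4, 0.933 for Myh1, 0.961 for Myl1, 0.903 for Mylpf, 0.925 for Mybpc2 and 0.866 for Myom2. Of the thin filament it was 0.911 for Tnnc2, 0.973 for Tnni2, 0.870 for Tnnt3, 0.926 for Acta1 and, with less height, 0.844 for the slow Tnnc1. Of the Z-disc genes it was 0.934 for Actn3, 0.955 for Myoz1, 0.854 for Tcap, 0.927 for Ttn, 0.868 for Des and 0.913 for Myot. Calcium genes had 0.968 (Casq1), 0.898 (Atp2a1) and 0.935 (Pvalb), and energy genes 0.953 (Ckm), 0.882 (Mb), 0.934 (Pygm) and 0.897 (Cox6a2). The mean of the 14 fast genes had 0.976 and the mean of all 40 had 0.943.

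In MEKi+CD40 tumors, where 2 of 4 were high for most of the 40, 6 genes were singled out because MEKi+CD40 tumor 1 alone was high. They were Myh7 (0.945), Cacna1s (0.945), Eno3 (0.858), Cox8b (0.850), Tnnc1 (0.832) and Ldb3 (0.830). For Ldb3 this depends on the probe set, since others of its probe sets had excesses of 2.34 and 1.245 in MEKi+CD40 tumor 3. In MEKi tumors MEKi tumor 2 was apart for Myh2 (0.864), Tnnt3 (0.879) and Mybpc1 (0.898), and MEKi tumor 3 for Neb (0.938). The interaction passed for none of the 40.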

How the results depend on the processing

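The sign of the difference was kept in 1859 of 1918 recomputed differences of 18 named genes, and none that was called turned round. For the call of MEKi+CD40 against CD40 (1 of the 40, Cox7a1), all 16 arrays in 1 fit, the filter on low signal, array weights and leaving out the 3 tumors of high muscle signal each gave 2 (Cox7a1 and Cox8b), and leaving out 1 tumor at a time gave 0 to 2. Of all genes these 4 settings called 2764 of 18193, 1457 of 12791, 2387 of 18193 and 844 of 18193. Leaving out 1 tumor at a time called 0 to 1855 of 18193. All 16 arrays in 1 fit also called 1 (Myom1) in MEKi+CD40 against control and 2 (Eno3 and Cox8b) in MEKi+CD40 against MEKi. Of all 18193 genes that fit called 2578 and 2489 in these comparisons, larger shares than among the 40. Without the 3 tumors, which were picked by the same genes so that the fall follows from the choice, the median difference of the 40 genes was 0.049 in MEKi+CD40 against control, −0.11 in MEKi+CD40 against MEKi and −0.18 in the interaction (1.57 with all tumors), and leaving out 1 tumor at a time gave 0.94 to 2.75, 0.80 to 2.56 and 0.32 to 2.23. The mean of the 4 slow genes in MEKi tumor 2 was 0.20 and their median 0.28. Tumor numbers were shared between groups, and deviations of same-numbered tumors correlated at −0.52 to 0.47 over 24 pairs (7 over 0.1). Tumors of different numbers were not correlated for reference, so this cannot settle whether the numbers pair tumors. With the number as a replicate block 0 of the 40 were called in every comparison, against 1 without it in MEKi+CD40 against CD40 (Cox7a1, adjusted p = 0.0767). The count over all genes was less stable: in MEKi+CD40 against control 1 gene was called, and 2578 with all 16 arrays in 1 fit, 1120 after the filter and 0 with the block. The causes were not tested. Signal at the level of silent genes limits 24 of the 40 in control tumors.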

Other observations

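Genes of muscle stem cells and developing muscle were measured as a further list of 10. In MEKi+CD40 tumor 1 the fetal and cardiac actin gene Actc1 had an excess of 3.16, the adult myogenic factor Myf6 2.77, Myog 1.35 and embryonic myosin Myh3 1.23, whereas Pax7 and Myf5, which mark satellite cells and early myoblasts, had 0.17 and 0.43. In MEKi+CD40 tumor 3 Myf6 had 1.16, Myh3 0.82 and Pax7 0.03. The neonatal myosin Myh8, whose gene neighbors Myh4, had 0.29 in MEKi+CD40 tumor 1 and 0.98 in MEKi+CD40 tumor 3, with signals below the level of silent genes in both. Only Ncam1 of this list passed in any comparison, in MEKi+CD40 against CD40, where 6.44% of all genes were called. Ncam1, the adhesion molecule of developing muscle and of nerve, was higher in MEKi+CD40 than in CD40 tumors by 1.32 ± 0.24 (limma adjusted p = 0.0318). Its excess was 1.52, 0.91, 1.32 and 1.93 in MEKi+CD40 tumors 1 to 4, 1.79 in MEKi tumor 3 and 1.02 in MEKi tumor 4.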
